A study of Arabidopsis thaliana with 48 samples.

Results

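The 7 Arabidopsis thaliana genes described here encode the histone variant H2A.Z and the SWR1 complex that places it in chromatin. HTA8 (AT2G38810), HTA9 (AT1G52740) and HTA11 (AT3G54560) encode H2A.Z, and PIE1 (AT3G12810), ARP6 (AT3G33520), SWC6 (AT5G37055) and SWC2 (AT2G36740) encode SWR1 subunits. They were chosen by locus identifier, and all 7 were found among the 32548 loci of each of the 2 gene expression tables. All 7 were also tested in both tables, which kept 25638 and 24458 genes. The study measured mRNA by single-end RNA sequencing of whole seedlings grown on MS plates, in 48 libraries with 2 libraries in each group. The mutants were ino80(-/-), mutant in the gene of the ATPase of the INO80 remodelling complex, arp5(-/-), nfrkb1(-/-);nfrkb2(-/-);nfrkb3(-/-) (nfrkb1/2/3), uch1(-/-);uch2(-/-) (uch1/2) and atx4(-/-);atx5(-/-);jmj24(-/-) (atx4/5;jmj24). The 3 transgenic lines, all in the ino80 background, carried INO80 whole (INO80FL), its residues 1-550 (INO80N) or its residues 335-1540 (INO80C). The promoter that drives these transgenes is not given in the sources used here, and neither is the number of independent lines. Wild type (Col-0) was the control of every mutant and line.

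The first set of libraries held all 9 genotypes under short days (8 h light and 16 h dark, 14 days old) and under long days (16 h light and 8 h dark, 11 days old). The second set held ino80, nfrkb1/2/3, uch1/2, atx4/5;jmj24, INO80FL and wild type in short days only. The age of the second-set seedlings is not given in the sources used here. Day length and seedling age cannot be told apart in this design. The tables of the sets were normalised separately, so tests were made within a table, and levels set side by side across tables are a description. Values are the deposited read counts adjusted for library size, called normalised reads below, and ± is the standard deviation over the 2 libraries of a group. Differences are log2 ratios of (value + 1), tested with limma over all genes of a table, and a difference counted as a call when its adjusted p (Benjamini-Hochberg, over all genes of the table) was below 0.05. Nothing in the labels says that the libraries of a group came from separate cultures, so p-values measure the spread between libraries, which may be technical.

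H2A.Z replaces the core histone H2A in some nucleosomes, often in those next to transcription start sites, and in plants also across the bodies of genes that respond to the environment. SWR1 takes H2A-H2B dimers out of nucleosomes and puts H2A.Z-H2B dimers in, with PIE1 as its ATPase motor. In Arabidopsis, loss of PIE1, ARP6 or SWC6 causes early flowering and lowers expression of the floral repressor FLC. H2A.Z is also known in this plant for its part in the response of genes to ambient temperature. The INO80 complex is related to SWR1 and shares actin-related and RuvB-like subunits with it. ARP5 is an actin-related subunit of INO80, NFRKB and UCH are named after subunits of the animal INO80 complex, and ATX4 and ATX5 are histone methyltransferases.

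In the RefSeq annotation of TAIR10.1, HTA9 lies at chr1:19645236-19646485 on the plus strand, HTA8 at chr2:16219220-16220928 on the minus strand and HTA11 at chr3:20196140-20197726 on the plus strand. PIE1 lies at chr3:4065042-4074194 (plus), ARP6 at chr3:14093656-14095588 (minus), SWC6 at chr5:14641442-14642513 (minus) and SWC2 at chr2:15406622-15409912 (minus). The tables give no coordinates and were made on TAIR10. The 3 H2A.Z genes are close copies in their coding sequence. HTA8 and HTA11 share 81.75% of aligned coding bases, HTA9 and HTA11 share 73.72%, and HTA8 and HTA9 share 71.53%. A stretch from the middle of the coding sequence is shown for each gene because it bears on whether 50-bp reads can be told apart, with capitals marking bases that are not the same in all 3 genes.
HTA8: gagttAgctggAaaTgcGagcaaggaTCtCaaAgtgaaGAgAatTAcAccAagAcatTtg
HTA9: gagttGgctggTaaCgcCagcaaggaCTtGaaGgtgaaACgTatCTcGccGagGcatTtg
HTA11: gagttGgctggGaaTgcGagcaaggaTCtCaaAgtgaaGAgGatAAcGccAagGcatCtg
These are coding bases 235 to 294 of HTA8 and HTA11 and 229 to 288 of HTA9, of 411, 411 and 405 in all. Of the 60 bases, 43 are the same in all 3 genes. At 10 of the others, HTA8 and HTA11 hold the same base and HTA9 holds a different one. HTA8 and HTA11 differ at 7 of the 60 bases, HTA8 and HTA9 at 16, and HTA9 and HTA11 at 14. The longest run shared between coding sequences is 29 bases, between HTA8 and HTA11, which is shorter than a read. No 50-base window of the exons of any of the 7 genes occurs elsewhere in the genome on either strand. Of the members, 3 overlap a gene on the opposite strand, and the strand setting of the counting is not given in the sources used here. The overlap covers 4.88% of the exonic bases of PIE1, 2.49% of those of HTA9 and 0.99% of those of ARP6.

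Library totals ran from 18867187 to 22653356 normalised reads in the first set and from 20080952 to 22921363 in the second. INO80 itself averaged 861.7 ± 112 normalised reads in ino80 against 1580.3 ± 1.85 in wild type in long days. ARP5 was higher, not lower, in the long-day libraries labelled arp5, at 5736 ± 122 against 313.5 ± 28.6 in wild type. Reads per gene do not tell a wrong label from a mutant allele that is still transcribed. No direction is drawn here from the arp5 label. INO80 averaged 4785 ± 240.3 in INO80FL, 6429 ± 173 in INO80N and 12088 ± 763 in INO80C in long days. Leaf and root markers were detected in every library, none of them at 0. Circadian clock genes separated the sets: CCA1, a morning clock transcription factor, spanned 7515 to 17298 normalised reads in short days of the first set, 823 to 2637 in long days and 29.1 to 55.9 in short days of the second. The evening clock gene TOC1 spanned 232 to 415, 392 to 656 and 3952 to 6002 in the same 3 kinds of library. The time of day of harvest is not given in the sources used here. Summed over 13 markers of dividing cells, none of them at 0 in any library, levels were 2202 to 2705 in short days of the first set, 2954 to 3731 in long days and 3796 to 4477 in the second set. In bulk seedlings, fewer cells of a type and less RNA per cell cannot be told apart.

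Per kilobase of exon, HTA9 was the most abundant of the 7 genes in every kind of library. Its median level was 2299 normalised reads per kilobase in short days of the first set, 1525 in long days and 2145 in the second set. ARP6, an actin-related subunit that SWR1 does not share with INO80, had medians of 465, 376 and 400 in the same order. HTA11 had medians of 247, 315 and 425 per kilobase, above ARP6 in the second set alone, and SWC2, the subunit whose yeast counterpart binds H2A.Z, 186, 205 and 176. SWC6, a subunit with a HIT-type zinc finger, HTA8 and PIE1 had the lowest levels. Their medians were 149, 128 and 144 per kilobase for SWC6, 101, 123 and 144 for HTA8, and 100, 102 and 125 for PIE1. The range of HTA9 lay above every other member in each kind of library. ARP6 lay above HTA11 in short days of the first set, at 403 to 501 against 207 to 280.2 per kilobase, but the ranges of ARP6 and HTA11 overlapped in long days and in the second set, as did those of SWC6, HTA8 and PIE1 throughout.

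**Figure D1:**
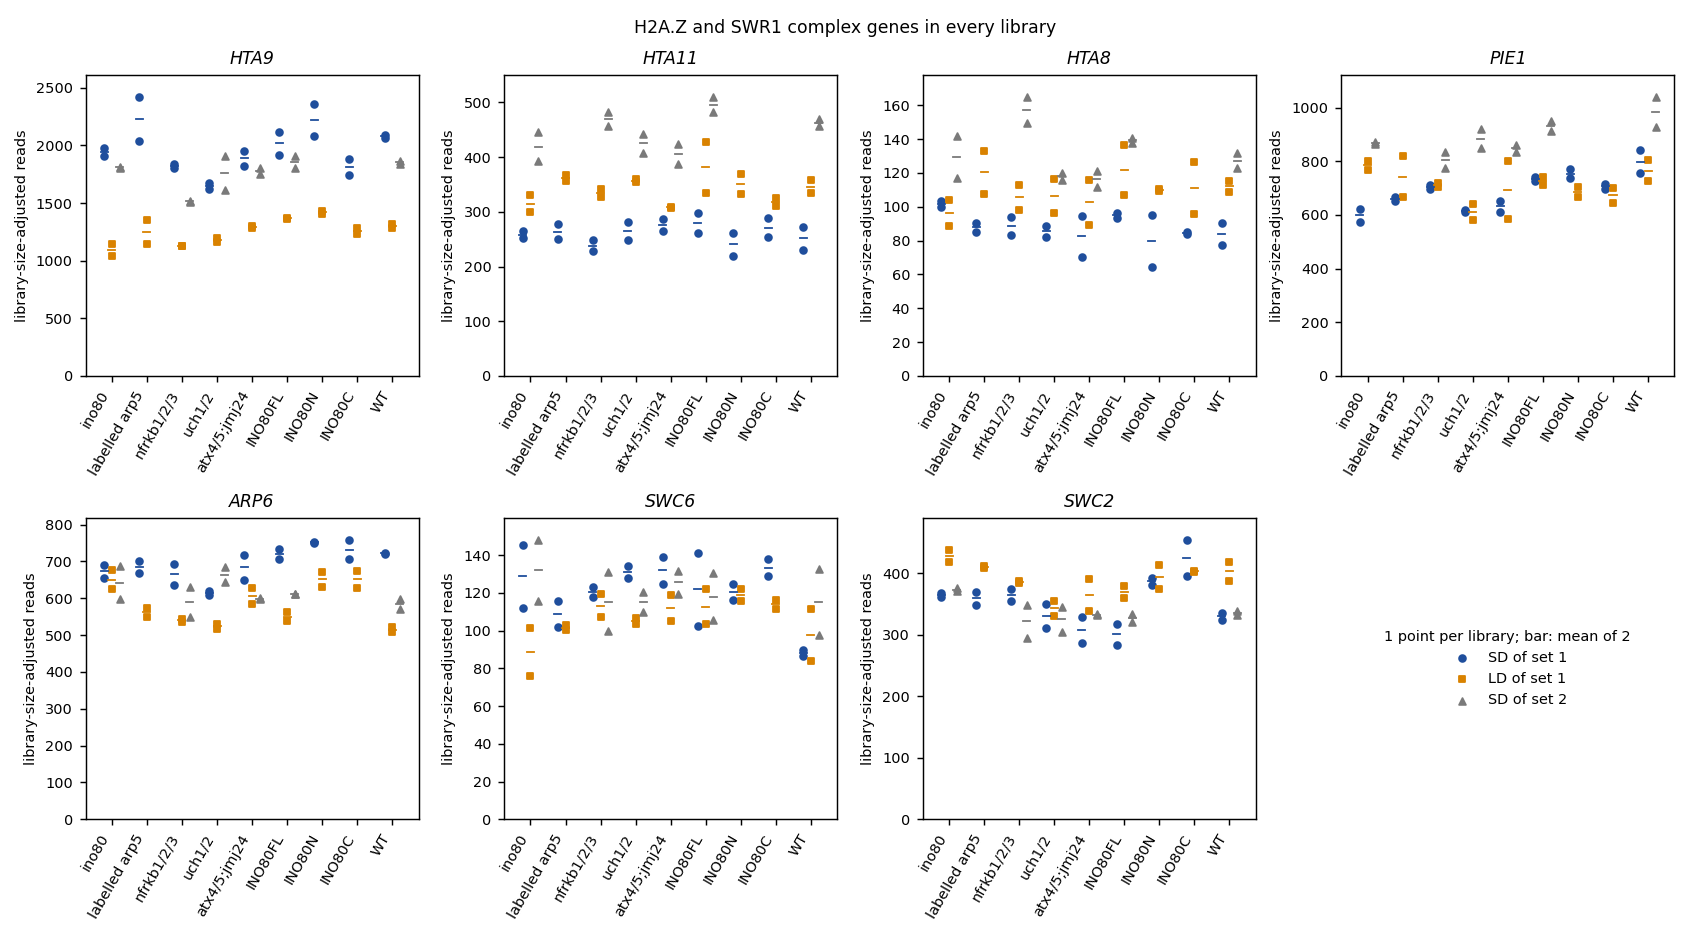
Normalised reads (vertical axis, from 0) of each of the 7 genes in every library, by genotype with wild type last. Circles are short days of the first set, squares long days and triangles short days of the second set, and HTA9 is the gene whose short-day circles, 1625 to 2421, all lie above the long-day squares, 1040.5 to 1432.

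The largest differences between groups of the 7 genes were between day lengths, up to 0.83 on the log2 scale for HTA9. HTA9 rose in short days in all 9 genotypes, HTA11 was lower in all 9 and fell in 6, and ARP6 rose in 8. Over 63 tests, 30 were called, 18 higher and 12 lower in short days, against 33.8% of tests over all genes, 16.7% higher and 17.1% lower. Of the 30 calls, 16 were kept in every alternative processing and with each library left out. By gene, the calls were 9 of HTA9, 8 of ARP6, 6 of HTA11, 4 of SWC2 and 1 each of HTA8, PIE1 and SWC6.

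HTA9 had 2067 and 2091 normalised reads in wild-type seedlings in short days, against 1282 and 1318 in long days. In ino80 the values were 1906 and 1980.0 in short days, against 1040.5 and 1147 in long days. In uch1/2 they were 1625 and 1672 in short days, against 1199.5 and 1158 in long days. In each of these genotypes both short-day libraries were above both long-day libraries, and over all 36 libraries of the first set the lowest short-day value stood above the highest long-day one. The log2 difference was 0.68 in wild type (SE 0.08, limma adjusted p = 2.95e-07), 0.83 in ino80 (adjusted p = 2.71e-08) and 0.48 in uch1/2 (adjusted p = 4.00e-05). The other 6 genotypes lay between 0.53 and 0.83. As a ratio of means, short days were 1.398 to 1.784 times long days, and 5 of the 9 differences were past 1.5-fold on the log2 scale.

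HTA11 went the other way. It had 229.8 and 273 normalised reads in short days, against 358 and 334 in long days in wild type. Over all genotypes its libraries spanned 220 to 297 in short days, against 299 to 428 in long days, with no overlap. HTA11 fell by 0.46 on the log2 scale in wild type (SE 0.11, limma adjusted p = 0.00215), a call lost without wild-type short-day replicate 1, and by 0.55 in INO80N (adjusted p = 5.17e-04). The difference was -0.28 in ino80 (adjusted p = 0.0596), -0.23 in INO80C (adjusted p = 0.124) and -0.16 in atx4/5;jmj24 (adjusted p = 0.301), none of them called. HTA8, the least counted of the 3 H2A.Z genes, had 77.3 and 90.6 normalised reads in short days, against 115 and 109 in long days in wild type. Those libraries did not overlap, but with a log2 difference of -0.42 (SE 0.19, adjusted p = 0.0869) the gene was not called. HTA8 was below its long-day mean in 8 of 9 genotypes and called in INO80N alone, at -0.48 (adjusted p = 0.0490), a call lost in 9 of 13 alternatives. Counting error alone was about 10% of a value for HTA8 and 2% to 3% for HTA9.

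**Figure D2:**
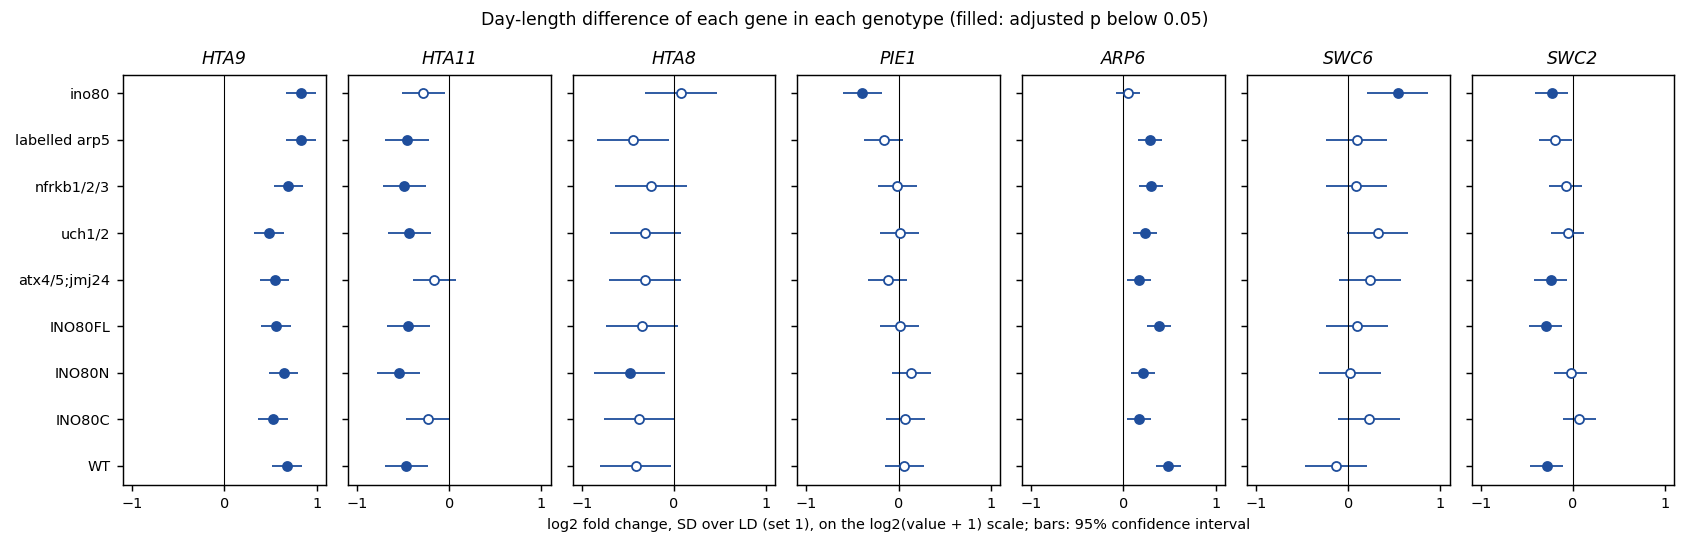
Log2 difference of short days over long days (horizontal axis) with its 95% interval in each of the 9 genotypes (vertical axis), one panel per gene. Filled points were called, and the 9 HTA9 points lie between 0.48 and 0.83 while the 9 HTA11 points lie below 0.

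The shares of HTA8, HTA9 and HTA11 in their summed level per kilobase differed between day lengths. The H2A.Z-like gene HTA4, described below, was left out of this sum. HTA9 supplied 88.2% ± 1.16 of the sum in wild type in short days and 77.3% ± 1.18 in long days. HTA11 supplied 8.45% ± 0.85 in short days and 16.3% ± 0.88 in long days, and HTA8 supplied 3.39% ± 0.31 in short days and 6.35% ± 0.29 in long days. Over all genotypes the HTA9 share spanned 84.5% to 89.9% in short days, against 74.5% to 79.6% in long days, with no overlap. The sum of the 3 genes was 2257 to 3239 normalised reads per kilobase in short days, against 1618 to 2185 in long days.

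The short-day libraries of the second set did not have that share. There the HTA9 share was 74.3% to 81.3%, with wild type at 79.1% ± 0.19, and the HTA11 share was 13.8% to 18.7%. HTA9 itself had 1512 to 1910 normalised reads in the second set, against 1040.5 to 1432 in long days of the first. The sum of the 3 genes was 2414 to 2908 per kilobase there, against 1618 to 2185 in those long days. HTA11 had 388 to 510.3 normalised reads in the second set, above every library of the first set in short days. The tables were normalised separately. CCA1, its partner LHY and TOC1 also differed between these kinds of library. The median HTA9 share was 86.7% in short days of the first set, 76.4% in long days and 79.1% in the second set. CCA1 and LHY were both lowest in the second set, where TOC1 was highest. LHY spanned 9910 to 18314 normalised reads in short days of the first set, 523 to 1565 in long days and 6.02 to 19.9 in the second set. Markers of dividing cells were lower in short than in long days of the first set (78 of 117 tests called lower, 0 higher). Over all genes 17.1% of such tests were called lower and 16.7% higher. Summed, these markers were highest in the second set. The part of clock gene levels and of dividing cells in the day-length differences was not tested.

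**Figure D3:**
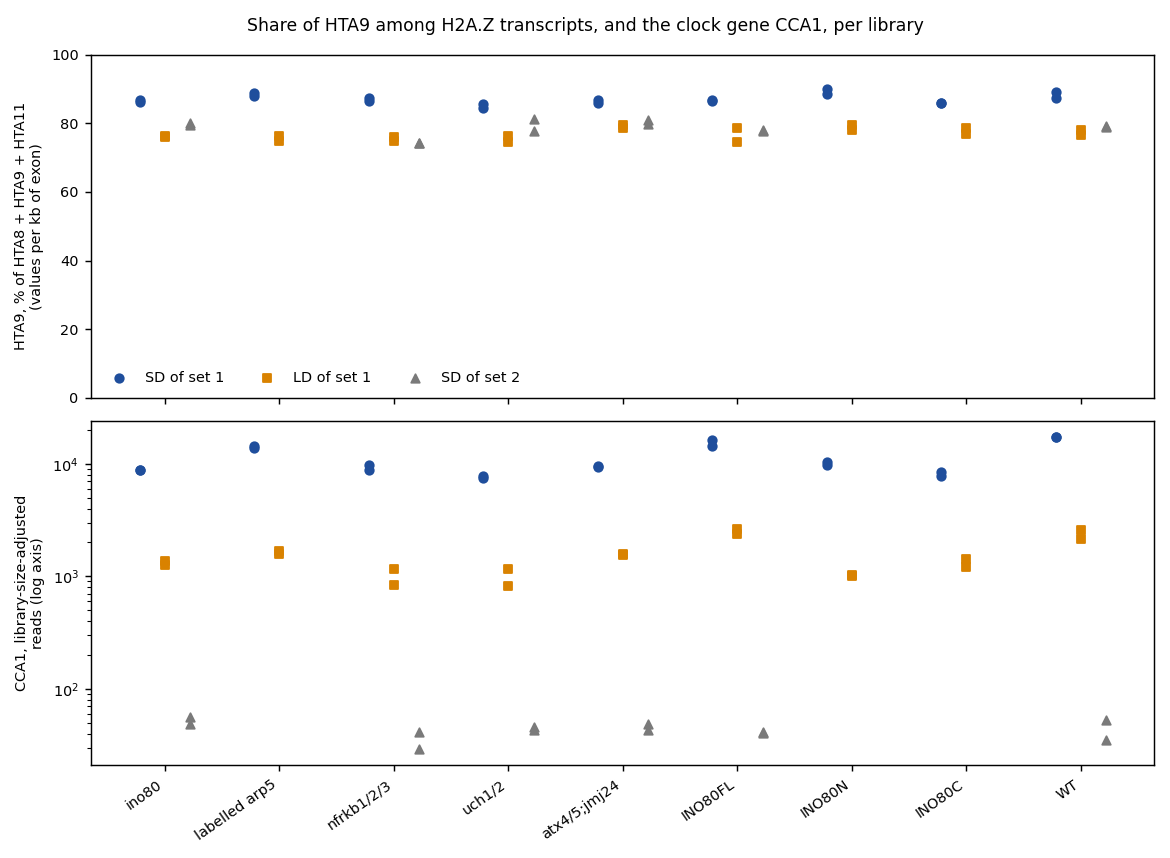
Top, HTA9 as a percentage of the summed HTA8, HTA9 and HTA11 level per kilobase of exon in each library. Bottom, CCA1 in the same libraries on a log axis. Short days of the first set lie at 84.5% to 89.9% with CCA1 above 7515 normalised reads. Long days lie at 74.5% to 79.6% with CCA1 at 823 to 2637, and the second set at 74.3% to 81.3% with CCA1 below 56.

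Among the SWR1 subunits, ARP6 was called between day lengths most often. It had 720.2 and 724 normalised reads in short days, against 522 and 507 in long days in wild type, with no overlap. In ino80 the values were 691 and 654 in short days, against 676 and 625 in long days, and these overlapped. ARP6 rose by 0.49 on the log2 scale in wild type (SE 0.06, limma adjusted p = 1.60e-06) and by 0.17 to 0.39 in 7 other genotypes. In ino80 the difference was 0.05 (adjusted p = 0.607), with a 95% interval of -0.08 to 0.18. SWC2 fell in short days in wild type, with 330.4 ± 7.97 in short days against 403 ± 22.5 in long days, a log2 difference of -0.28 (SE 0.09, adjusted p = 0.0111). It also fell in INO80FL, atx4/5;jmj24 and ino80. PIE1 and SWC6 were called between day lengths in ino80 alone: PIE1 at 598.4 ± 35.2 in short days against 785.7 ± 23.6 in long days (log2 difference -0.39, adjusted p = 0.00455), and SWC6 at 128.8 ± 23.8 in short days against 88.6 ± 17.8 in long days (0.54, adjusted p = 0.0125). Leaving out ino80 short-day replicate 2 ended the PIE1 call, and the SWC6 call was lost in 3 alternatives.

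Between the 5 mutants, the libraries labelled arp5 among them, and wild type no member differed by more than 1.5-fold. In long days 5 of 35 tests were called, 2 higher and 3 lower, against 21.2% of tests over all genes, 9.34% higher and 11.8% lower. In short days of the first set 9 of 35 were called, 4 higher and 5 lower, against 29.8% over all genes, 13.7% higher and 16.1% lower. In the second set 2 of 28 were called, both lower, against 15.2% over all genes, 7.43% higher and 7.78% lower. Log2 differences ran from -0.32 to 0.34 in long days, from -0.41 to 0.57 in short days of the first set and from -0.29 to 0.30 in the second set. All these tests share the wild-type libraries of their condition. Of these calls, ARP6 in ino80 in long days alone was kept in every alternative. The long-day count was 2 and 1 without wild-type replicates 1 and 2, and 3 without replicate 1 of ino80 or of uch1/2. In short days of the first set the count was 3 without wild-type replicate 2. In the second set it was 1 without wild-type replicate 4 or nfrkb1/2/3 replicate 3 and 0 without wild-type replicate 3 or nfrkb1/2/3 replicate 4. Leaf markers moved with these comparisons. Of 24 tests of 6 leaf markers in the 4 mutants other than the libraries labelled arp5, 14 were called lower in short days of the first set, 19 in long days and 9 in the second set, and 0 higher in each. Their summed level was 755915 to 1019930 normalised reads in these mutants against 1130980 to 1206680 in wild type in short days of the first set, and 836491 to 1199300 in these mutants against 1376160 to 1426810 in wild type in long days. The second set had 620834 to 928489 in the mutants against 969062 to 981516 in wild type. The part of leaf markers in the values of the 7 genes in mutants was not tested.

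**Figure D4:**
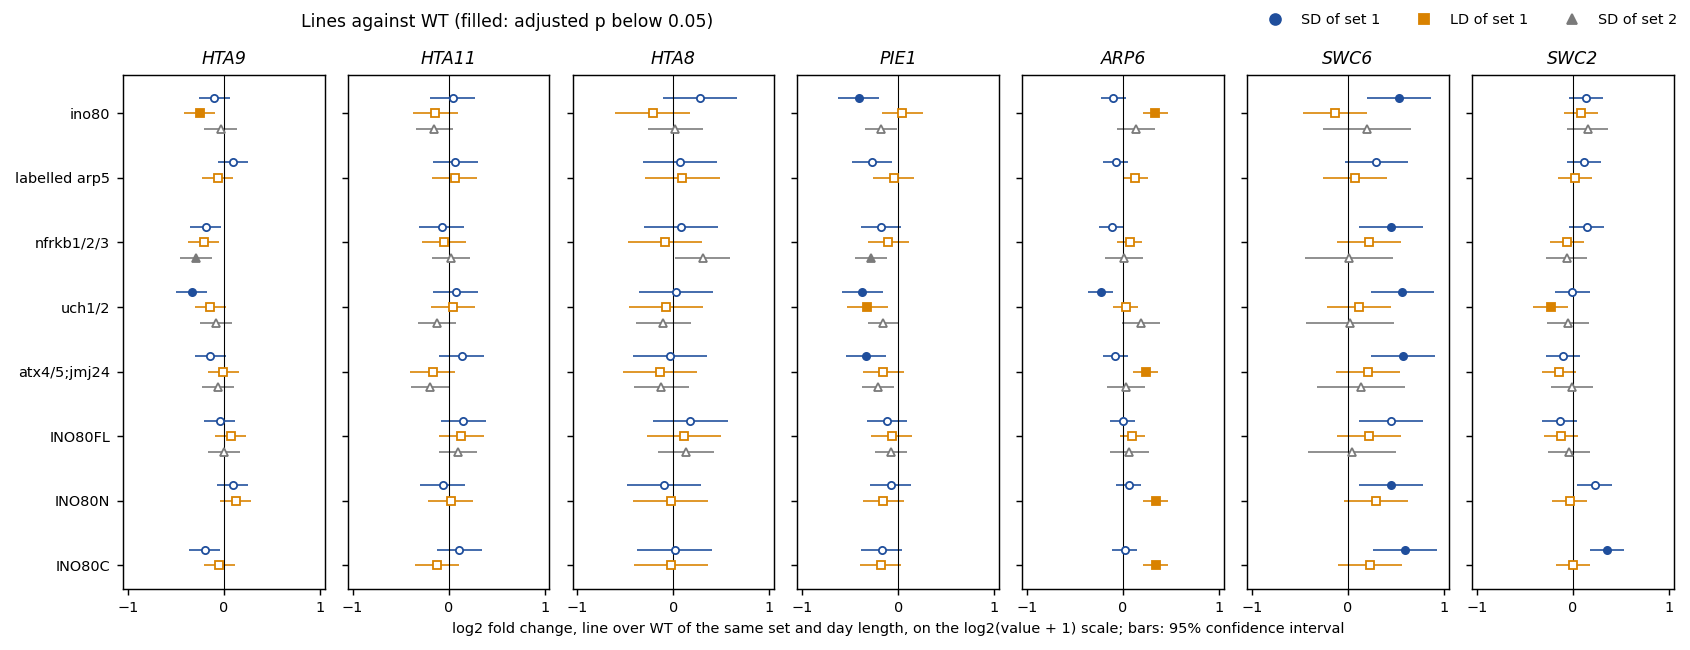
Log2 difference of each mutant or transgenic line over wild type (horizontal axis) with its 95% interval, one panel per gene. Lines are on the vertical axis, each in short days of the first set, long days and short days of the second set where measured. Filled points were called; ARP6 in long days lies at 0.34 in ino80, INO80N and INO80C, and PIE1 lies below 0 in short days in all 8 comparisons of ino80, nfrkb1/2/3, uch1/2 and atx4/5;jmj24.

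In long days, ARP6 was higher in ino80 and in both lines with part of INO80. It had 676 and 625 normalised reads in ino80, 632 and 670.4 in INO80N and 629 and 675 in INO80C, against 522 and 507 in wild type. None of these 6 libraries overlapped wild type. The log2 difference was 0.34 in each (SE 0.06), with limma adjusted p of 2.77e-04 in ino80, 2.95e-04 in INO80N and 2.83e-04 in INO80C, and all 3 calls were kept in every alternative. INO80FL, which carries the whole protein, had 563 and 538, a log2 difference of 0.10 from wild type (adjusted p = 0.687) and of -0.24 from ino80 (adjusted p = 0.00534, a call lost in 3 alternatives). ARP6 also rose in atx4/5;jmj24, to 606 ± 32.2 (0.23, adjusted p = 0.0141, lost in 4 alternatives). In nfrkb1/2/3 and uch1/2 the differences were 0.07 and 0.03.

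In short days ARP6 was not called in ino80. ARP6 had 691 and 654 normalised reads in ino80, against 720.2 and 724 in wild type in the first set, a log2 difference of -0.10 (adjusted p = 0.224). The second set had 598 and 686 in ino80, against 598 and 571 in wild type, a difference of 0.13 (adjusted p = 0.368). The difference between the ino80 effect in short days and that in long days was itself tested, and was -0.44 (SE 0.09, limma adjusted p = 0.00399), with 17 alternatives between -0.50 and -0.38 at adjusted p of 0.00371 to 0.0277. The same test gave -0.32 in atx4/5;jmj24 (adjusted p = 0.0328) and -0.32 in INO80C (adjusted p = 0.0199), lost in 9 and 7 of 17 alternatives. Of 56 such tests of the 7 genes these 3 were called, all lower, against 6.16% over all genes, 2.70% higher and 3.45% lower. The count was 1 without wild-type long-day replicate 2 or wild-type short-day replicate 2 and 5 without atx4/5;jmj24 long-day replicate 1. CCA1 was lower in ino80 than in wild type in both day lengths of the first set, with log2 differences of -0.97 in short days and -0.84 in long days, and its part in the ARP6 values was not tested.

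PIE1 fell in 3 mutants in short days of the first set. It had 623 and 574 normalised reads in ino80, 609.6 and 620.2 in uch1/2 and 612 and 652 in atx4/5;jmj24, against 756 and 840.3 in wild type. Wild type had the highest mean of that set in short days, and none of these 6 libraries reached it. PIE1 fell by 0.41 in ino80 (SE 0.10, limma adjusted p = 0.00282), by 0.37 in uch1/2 (adjusted p = 0.00544) and by 0.34 in atx4/5;jmj24 (adjusted p = 0.0170) on the log2 scale. All 3 calls were lost without wild-type replicate 2 and under scaling to equal library totals, and the call in atx4/5;jmj24 also without its replicate 1. PIE1 in the second set had 836 and 776 in nfrkb1/2/3, against 1040.0 and 929 in wild type (-0.29, adjusted p = 0.0175, lost in 4 alternatives). There ino80 differed by -0.18, uch1/2 by -0.15 and atx4/5;jmj24 by -0.21, none of them called. In long days PIE1 fell in uch1/2 alone, to 610.9 ± 41.8 against 764.9 ± 56.8 in wild type (-0.32, adjusted p = 0.0200, lost in 4 alternatives).

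SWC6 rose in 4 mutants in short days of the first set. It had 112 and 146 normalised reads in ino80, 118 and 123 in nfrkb1/2/3, 128 and 135 in uch1/2 and 125 and 139 in atx4/5;jmj24, against 89.7 and 86.6 in wild type. Both wild-type libraries lay below every other short-day library of that set. SWC6 rose by 0.53 in ino80 (SE 0.16, limma adjusted p = 0.0127), 0.45 in nfrkb1/2/3 (adjusted p = 0.0372), 0.57 in uch1/2 (adjusted p = 0.00691) and 0.57 in atx4/5;jmj24 (adjusted p = 0.00995). Without wild-type replicate 2 the calls in ino80, nfrkb1/2/3 and atx4/5;jmj24 were lost, and the call in uch1/2 was lost without its own replicate 2. In the second set, with 97.6 and 133 in wild type, the same 4 mutants differed by 0.01 to 0.20 and none was called, with 95% intervals from -0.45 to 0.66. Root markers moved with the short-day values of the first set. Of 36 tests of 9 root markers in these 4 mutants, 28 were called higher and 0 lower in short days of the first set. Over all genes, 11.9% to 18.1% were called higher in these 4 comparisons. Summed root markers were at 3184 to 4615 normalised reads in the mutants against 2031 to 2379 in wild type. The second set had 15 called higher and 2 lower of 36, against 7.43% higher and 7.78% lower over all genes. The root marker sums there were 2300.5 to 3895 in the mutants against 1894 to 2032 in wild type. None of the 9 was at 0 in any library, and their part in the PIE1 and SWC6 values was not tested.

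HTA9 lay below wild type in ino80, nfrkb1/2/3, uch1/2 and atx4/5;jmj24 in each of the 3 conditions, and 1 of these 4 was called in each. Library totals of wild type were above those of these mutants in each condition, and signs under equal library totals are not given here. Log2 differences of HTA9 ran from -0.25 to -0.006 in long days and from -0.33 to -0.10 in short days of the first set. In the second set HTA9 differed by -0.29 to -0.03. In long days it averaged 1094 ± 75.5 in ino80 against 1299.7 ± 25.5 in wild type (-0.25, SE 0.08, limma adjusted p = 0.0181, lost in 6 alternatives). In short days of the first set it averaged 1649 ± 33.1 in uch1/2 against 2079 ± 17.4 in wild type (-0.33, adjusted p = 0.00143, lost under 2 other scalings). In the second set it had 1521 and 1512 in nfrkb1/2/3, against 1838 and 1865 in wild type (-0.29, adjusted p = 0.0180, lost in 6 alternatives), and uch1/2 there had 1615 and 1905, a spread that reached wild type. SWC2 was called in 1 mutant, uch1/2 in long days, at 343 ± 17.2 against 403 ± 22.5 in wild type (-0.23, adjusted p = 0.0468, lost in 9 alternatives). ARP6 fell in uch1/2 in short days of the first set (-0.23, adjusted p = 0.00523), which scaling to equal library totals ended. The libraries labelled arp5 gave 0 calls against wild type by limma in both day lengths, where 16.2% of all genes were called in short days and 9.90% in long days, and 1 of the 7 genes in short days and 0 in long days had an unadjusted p below 0.05. HTA8 and HTA11 were not called in any comparison of a mutant or line with wild type or with ino80.

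The transgenic lines were set against wild type and against the ino80 background. Against wild type 5 of 42 tests in the first set were called, all higher, and 2 without INO80C short-day replicate 2. Over all genes 18.4% of these tests were called, 8.54% higher and 9.82% lower. Beside ARP6 in long days, these were SWC6 in INO80N (0.45, adjusted p = 0.0464) and in INO80C (0.59, adjusted p = 0.00613) and SWC2 in INO80C, all in short days. SWC2 had 396 and 454 normalised reads in INO80C, against 336 and 325 in wild type, a log2 difference of 0.36 (SE 0.09, limma adjusted p = 0.00240) that was not called without INO80C replicate 2. INO80FL gave no call against wild type in either set, where few genes of any kind were called, 0.121% in long days, 0.129% in short days of the first set and 0.0532% in the second. At an unadjusted p below 0.05 it had 1 of the 7 genes in short days of the first set and 0 in the other 2 comparisons.

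Against ino80, 6 of 42 tests were called, 4 higher and 2 lower, against 20.6% over all genes, 11.0% higher and 9.58% lower. In long days HTA9 had 1432 and 1407 in INO80N and 1365 and 1369.7 in INO80FL, against 1040.5 and 1147 in ino80. All 4 transgenic libraries were above both ino80 libraries. HTA9 rose by 0.38 in INO80N (adjusted p = 8.95e-04, kept in every alternative) and by 0.32 in INO80FL (adjusted p = 0.00261, lost in 2). Leaf markers were called higher in 15 of 36 tests of the transgenic lines against ino80 and lower in 1, and their part in these values was not tested. In short days PIE1 was higher in INO80FL (0.30, adjusted p = 0.0337, lost in 6 alternatives) and INO80N (0.33, adjusted p = 0.0333, lost in 4), and SWC2 was lower in INO80FL (-0.28, adjusted p = 0.0182, lost in 4). INO80FL in the second set gave 0 calls of 14 by limma, against 5.49% over all genes, and 1 at an unadjusted p below 0.05.

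INO80N and INO80C were compared directly. Of 14 tests 1 was called, higher in INO80N, against 13.4% over all genes, 6.57% higher and 6.86% lower. HTA9 in short days had 2361 and 2079.5 normalised reads in INO80N, against 1884 and 1739 in INO80C. The libraries did not overlap, and the log2 difference was 0.29 (SE 0.08, limma adjusted p = 0.0229). It was lost in 3 alternatives, and the count was 0 without INO80N short-day replicate 1 or INO80C short-day replicate 2.

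Other genes of SWR1 and of H2A.Z handling were described from a list of 17. HTA4 (AT4G13570), a divergent H2A.Z-like gene, had the largest differences between mutants and wild type. It had 36.3 and 55.4 normalised reads in ino80, 34.9 and 48.2 in uch1/2 and 66.4 and 71.7 in nfrkb1/2/3, against 127 and 137 in wild type in long days. Every one of these mutant libraries was below wild type. HTA4 fell by 1.53 in ino80 (SE 0.23, limma adjusted p = 2.34e-05), by 1.66 in uch1/2 (adjusted p = 1.04e-05) and by 0.92 in nfrkb1/2/3 (adjusted p = 0.00450) on the log2 scale, and each call was kept in every alternative. INO80FL had 127.7 ± 21.0, a difference of 1.48 from ino80 (adjusted p = 3.42e-05). In short days of the first set ino80 differed from wild type by -0.48 and uch1/2 by -0.43, neither called. HTA4 in the second set had 26.4 ± 7.08 in uch1/2 and 29.9 ± 2.71 in ino80, against 70.4 ± 8.51 in wild type, called in uch1/2 (-1.398, adjusted p = 0.0296, lost in 5 alternatives) and not in ino80 (-1.21, adjusted p = 0.0530).

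YAF9B, a YEATS-domain protein of the family that SWR1 holds, was higher in ino80. It averaged 73.3 ± 14.6 in ino80 against 31.2 ± 4.14 in wild type in short days of the first set (1.20, limma adjusted p = 5.97e-04) and 75.4 ± 3.17 in ino80 against 36.8 ± 2.2 in wild type in long days (1.02, adjusted p = 0.00340). In the second set the ino80 difference was 0.60 (adjusted p = 0.211). RIN1, a RuvB-like ATPase that SWR1 shares with INO80, rose in long days in ino80, to 675.3 ± 13.1 against 499.7 ± 23.6 in wild type (0.43, adjusted p = 3.44e-05). Over the 17 genes, 13 of 85 mutant tests were called higher and 5 lower in long days, 7 higher and 17 lower in short days of the first set, and 2 higher and 3 lower of 68 in the second set, the libraries labelled arp5 included. These are 21.2%, 28.2% and 7.35% of the tests, against 21.2%, 29.8% and 15.2% over all genes, so none of these shares was above that of all genes. CHR11, an ISWI-type remodeller found with SWR1 in plants, was among those lower in short days, at 1946 ± 42.4 in ino80 against 2479 ± 107 in wild type (-0.35, adjusted p = 2.53e-05).

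Between day lengths, 8 of these 17 genes rose and 0 fell in wild type, where 18.3% of all genes rose and 19.3% fell. In ino80, 1 rose and 2 fell, where 16.7% of all genes rose and 16.2% fell. The largest rises in wild type were those of the histone chaperone genes NAP1;2 and NAP1;1, which bind H2A-H2B dimers. NAP1;2 had 4332 and 4506 normalised reads in short days, against 2663 and 2749 in long days in wild type. In ino80 it averaged 3243 ± 19.0 in short days and 3037 ± 67.0 in long days. NAP1;2 rose by 0.71 in wild type (SE 0.06, limma adjusted p = 7.62e-09), with a difference of 0.10 in ino80 (adjusted p = 0.281). The difference of these effects was tested, and was -0.61 (SE 0.09, adjusted p = 2.41e-04) for NAP1;2 and -0.55 (SE 0.12, adjusted p = 0.00553) for NAP1;1, both kept in every alternative. ARP6 and the NAP1 genes share the same 8 libraries in these tests. NAP1;2 in the second set averaged 3217 ± 145 in ino80 and 3398 ± 123 in wild type (-0.08, adjusted p = 0.454).

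The 9 other H2A genes gave 7 calls higher and 27 lower in short days of 81 tests between day lengths, 42.0% in all. Over all genes 33.8% of such tests were called, 16.7% higher and 17.1% lower. In wild type 0 rose and 5 fell in short days, where 18.3% of all genes rose and 19.3% fell. HTA6 was among the 5, at 680.8 ± 47.4 in short days against 1016 ± 17.4 in long days (-0.58, limma adjusted p = 4.02e-07). So was HTA13 (-0.47, limma adjusted p = 0.00272). In mutants against wild type they were called in 6.67% of 45 tests in long days, against 21.2% over all genes, and in 22.2% of 45 in short days of the first set, against 29.8%. Their median difference between day lengths ran from -0.27 in wild type to 0.17 in INO80N. HTA6 was also 1 of the 3 genes whose levels were most like those of HTA11.

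A list of 5 genes that respond to SWR1 or H2A.Z in Arabidopsis held FLC and MAF5, a floral repressor related to FLC. Values are given below for some of these genes, and FLC is not among them. Over the 5 genes, 6 of 25 mutant tests were called higher and 1 lower in long days, the libraries labelled arp5 included. Short days of the first set gave 4 higher and 3 lower of 25, and the second set 4 higher and 0 lower of 20. These are 28%, 28% and 20% of the tests, against 21.2%, 29.8% and 15.2% over all genes. MAF5 was higher in ino80 in all 3 conditions. It had 203.2 ± 53.4 normalised reads in ino80 against 108.4 ± 37.7 in wild type in short days of the first set (log2 difference 0.92, limma adjusted p = 0.00625, lost in 3 alternatives). In long days it had 459.6 ± 19.4 in ino80 against 91.1 ± 13.4 in wild type (2.33, adjusted p = 3.33e-07), and in the second set 575.2 ± 7.15 in ino80 against 123.4 ± 10.54 in wild type (2.21, adjusted p = 7.68e-06). MAF5 in INO80FL was 41.0 ± 16.0 in long days. HSP70, a heat-induced chaperone gene used as a readout of H2A.Z occupancy, averaged 4579 ± 627 in short days against 1209 ± 85.5 in long days in wild type, a log2 difference of 1.92 (adjusted p = 3.35e-08).

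Group means of log2 levels of the 7 genes were correlated over the 18 groups of the first set, as a description of libraries that share 2 day lengths, and set beside the 6 groups of the second. HTA8 and HTA11 had Pearson's r of 0.89 in the first set and 0.73 in the second. HTA9 and HTA11 had r of -0.84 and -0.10, and HTA9 and ARP6 0.78 and 0.24. Among 17277 genes with a mean of at least 50 normalised reads, HTA9 was most like UBC10, a ubiquitin-conjugating enzyme (0.98 and 0.66), and RSZ21, a splicing factor (0.98 and 0.75). HTA11 was most like AT4G22830 (0.94 and -0.25), HTA6 (0.94 and 0.54) and CDKB2;1, a mitotic cyclin-dependent kinase (0.94 and 0.51). HTA8 was most like RBCS3B, a small subunit of Rubisco, at 0.92 in the first set and -0.40 in the second. PIE1 had r of 0.89 and 0.79 for the chromatin remodeller CHR5 and of 0.87 and 0.98 for AT4G31880.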

How the data were processed

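Whole seedlings were profiled by RNA sequencing with single-end 50-bp reads of Trizol-extracted RNA, per the labels' protocols. HISAT2 2.2.0, edgeR and TAIR10 are named in the submitters' processing notes, and the edgeR version, the counting tool and its strand setting are not given in the sources used here. The authors deposited 1 table per set, of signal values: read counts per locus adjusted for library size. Low values were near whole multiples of 1 read (78.7% to 100% within 0.1 of a read), which was too seldom for read counts to be recovered, and count models were not used. Genes at 1 or more in at least 2 libraries were fitted on log2(value + 1) with limma 3.58.1 in R 4.3.3 (trended variances), all groups of a table together, with 18 and 6 residual degrees of freedom and Benjamini-Hochberg adjustment over all genes. The script was tested on simulated data. Levels per kilobase used RefSeq exon lengths, the union over the transcripts of a gene. Sequences were read from the RefSeq TAIR10.1 genome. The members and all gene lists were chosen with earlier results of these data known, and the clock list was added after seeing the values. Named genes were the 7 members, up to 4 genes of a list with the largest called change in a comparison, and genes among the 3 most like each member, apart from clock genes and list genes given again beside a called value. Alternatives changed the pseudocount, filter, scaling, fit and libraries.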

Additional observations from a re-analysis of the deposited data

Results flagged for a closer look

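Effects that differed between day lengths in a test of the difference itself are given as values, as log2 of the short-day effect minus the long-day effect against wild type, and all use the same 4 wild-type libraries. ARP6 gave -0.44 in ino80, -0.32 in atx4/5;jmj24 and -0.32 in INO80C. NAP1;2 gave -0.61 in ino80, -0.67 in uch1/2, -0.32 in atx4/5;jmj24 and -0.38 in INO80C, and NAP1;1 gave -0.55 in ino80 and -0.49 in uch1/2. RIN1 gave -0.37 in ino80 and -0.47 in uch1/2, and CHR11 gave -0.33 in atx4/5;jmj24. HTA4 gave 1.26 in nfrkb1/2/3, 1.23 in uch1/2, 1.07 in atx4/5;jmj24 and 1.12 in INO80N. MAF5 gave -1.41 in ino80, and HSP70 gave -0.93 in ino80, -1.15 in uch1/2 and -2.0 in INO80C. The limma adjusted p of these tests ran from 4.2e-05 for HSP70 in INO80C to 0.047 for HTA4 in atx4/5;jmj24. Groups of 2 libraries were too small for a check of single libraries that stand apart.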

How the results depend on the processing

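Counts of calls over the 7 genes that moved by more than 1.5 times are given by setting. With a mean of at least 10 normalised reads required, the difference of effects between day lengths gave 5 calls in place of 3. With equal library totals, the transgenic lines against wild type gave 10 in place of 5, INO80N against INO80C gave 2 in place of 1 and the mutants of the second set gave 1 in place of 2. With quantile normalisation, mutants in long days gave 3 in place of 5, the difference of effects gave 1 in place of 3 and the mutants of the second set gave 1. With only the compared groups fitted, mutants in long days gave 1, mutants of the second set 1 and INO80N against INO80C 0. Leaving out each library in turn gave 1 to 5 calls for mutants in long days, 3 to 10 in short days of the first set and 0 to 2 in the second. It gave 2 to 6 for transgenic lines against wild type, 4 to 9 against ino80, 0 to 1 for INO80N against INO80C, 0 to 0 for INO80FL in the second set, 26 to 30 for day length and 1 to 5 for the difference of effects. MBD9, a methyl-CpG-binding domain gene linked to SWR1, was lower in uch1/2 in short days of the first set (log2 difference -0.18) and changed sign with equal library totals, to 0.0114. Same-numbered libraries are not said to share a culture or day. Deviations of same-numbered pairs had correlations of -0.415 to 0.352 in long days, with a median of 0.02. The range was -0.160 to 0.307 in short days of the first set, with a median of 0.02. In the second set it was -0.190 to 0.454, with a higher median of 0.27. The fit with a replicate block gave 4, 9 and 2 calls for mutants in long days, short days of the first set and the second set, 30 for day length and 4 for the difference of effects. Without the libraries labelled arp5, an alternative chosen after seeing the data, the difference of effects gave 3 calls and mutants in short days of the first set 10. Not divided by exon length, also chosen after seeing the data, the median HTA9 share was 84.4% in short days of the first set, 73.0% in long days and 75.8% in the second set. Depth limits HTA8 and SWC6 most, at about 10% counting error a library.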
